A study of Mus musculus with 3 samples.

Results

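The Iroquois genes of the mouse lie in 2 clusters, with Irx1, Irx2 and Irx4 on chromosome 13 (cluster A) and Irx3, Irx5 and Irx6 on chromosome 8 (cluster B). GLI3 binding around them was read from the GLI3 ChIP-seq peak list of E10.5 (embryonic day) forelimb buds. A listed peak was taken as a member when its summit lay within 500 kb of an annotated transcription start site (TSS) of any of the 6 genes, including peaks inside introns of the neighbouring gene Fto. This gave 66 of the 17149 listed peaks, 19 at the chromosome 13 cluster and 47 at the chromosome 8 cluster. The list ran to a false discovery rate (FDR) of 1, so a peak was counted as called only when its FDR was under 0.05. Of the 66 members, 24 were called, 5 on chromosome 13 and 19 on chromosome 8.

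The embryos, at 32 to 35 somites and on a mixed strain background, carried a FLAG tag on the endogenous Gli3 gene, although the genotype label of all 3 libraries reads wild type. There were 2 ChIP replicates, each from pooled forelimb buds of 2 litters, and 1 input library of chromatin that was not immunoprecipitated. Whole buds were pooled, so the list does not separate anterior from posterior cells. The list belongs to the record of ChIP replicate 1 and was taken here as a joint call of both replicates, which it does not state. The list has 1 value per peak, so replicate error is not known for any of the values that follow, and no difference between them was tested. Enrichment is given as the largest log2 ratio of ChIP over input within the peak. As a check on the list, the best peak within 100 kb of Ptch1, a direct target of the Hedgehog (HH) pathway, had rank 2 and a log2 fold enrichment of 6.05. The best peak near Gli1 had rank 7 (log2 5.76) and the best near Hhip rank 3007 (log2 2.79).

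Iroquois proteins are transcription factors of the TALE homeobox class. Mammals carry the clusters A and B as copies of an ancestral cluster, in which Irx1 corresponds to Irx3, Irx2 to Irx5 and Irx4 to Irx6. Irx3 and Irx5 act together in the early limb bud, where they are needed for proximal and anterior skeletal elements. GLI3 is the main transcriptional repressor of the HH pathway in the limb bud, and it binds DNA through zinc fingers that recognise a GACCACCCA consensus. Next to Irx3 lies Fto, which encodes an RNA demethylase and whose introns are known to hold enhancers that act on Irx3 and Irx5. The Fused toes deletion of the mouse removes Irx3, Irx5 and Irx6 together with Fto, Rpgrip1l, a gene for a ciliary transition zone protein, and Aktip.

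The DNA under the peaks is shown first, because the highest member held a near-consensus GLI sequence and most of the others did not. A GLI match was any 9-base sequence with at most 1 mismatch to GACCACCCA, on either strand, in the 501 bp centred on the summit. The sequences come from the GRCm38.p6 genome (mm10), run 5′ to 3′ on the strand that carries the match, and show the match in capitals. Each peak is named by its rank in the list, where rank 1 is the highest. Rank 85, in an intron of Fto, was the only called member with a match. The other lines are the 5 listed members that were not called and held a match, all of them on chromosome 8.
Rank 85, called, chr8:91612639-91612707, minus strand: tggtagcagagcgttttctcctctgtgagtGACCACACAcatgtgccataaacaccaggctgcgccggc
Rank 11735, Fto intron, chr8:91648131-91648199, plus strand: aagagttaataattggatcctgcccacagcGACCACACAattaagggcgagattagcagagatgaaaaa
Rank 9244, Fto intron, chr8:91445377-91445445, minus strand: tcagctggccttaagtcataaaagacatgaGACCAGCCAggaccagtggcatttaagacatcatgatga
Rank 14791, Fto intron, chr8:91613469-91613537, plus strand: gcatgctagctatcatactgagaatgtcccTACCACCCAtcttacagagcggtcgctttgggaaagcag
Rank 14140, Lpcat2 intron, chr8:92887155-92887223, plus strand: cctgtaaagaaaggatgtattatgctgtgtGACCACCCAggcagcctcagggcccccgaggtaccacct
Rank 7628, Lpcat2 5′ UTR, chr8:92855518-92855546, plus strand: gccgggctgcGGCCACCCAtggtacctcg

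The matches are read against the consensus, with positions counted from 1 at its 5′ end. Rank 85 and rank 11735 carried the same 9 bases, which differ from the consensus by C7A, and both copies sat beside the summit, at 9 bp and 7 bp. These peaks lay in the same Fto intron but differed in enrichment, with a log2 of 4.50 at rank 85 and 2.05 at rank 11735, which was not called (FDR 0.438). Rank 14140 held the exact consensus 17 bp from its summit, and was also not called (log2 1.93, FDR 0.727). The differences were C6G at rank 9244, G1T at rank 14791 and A2G at rank 7628. Those of ranks 9244 and 14791 lay 229 and 226 bp from the summit, beyond the listed end of the peak, and that of rank 7628 lay 90 bp from it. Within the members, a sequence this close to the consensus was therefore found under a high peak and under some of the low ones.

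For comparison, the next lines give the best-ranked called members that had no match, with the exception of rank 1413, which lies in a 5′ UTR. Rank 477 is shown on the strand of its closest sequence, in capitals, which had 2 mismatches (A5T and C7A) and lay 20 bp from the summit. The other 3 had no sequence within 2 mismatches in the 501 bp, and are shown on the plus strand around the summit with no capitals.
Rank 477, Gm28511 near Irx3, chr8:91867138-91867206, minus strand: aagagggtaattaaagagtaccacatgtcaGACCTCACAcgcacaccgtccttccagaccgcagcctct
Rank 1009, beyond the 3′ end of Irx2, chr13:72638413-72638481, plus strand: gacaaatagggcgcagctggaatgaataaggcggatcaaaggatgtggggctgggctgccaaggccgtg
Rank 1558, Gm36325 near Irx3, chr8:91713983-91714051, plus strand: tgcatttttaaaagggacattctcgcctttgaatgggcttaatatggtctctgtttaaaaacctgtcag
Rank 1619, upstream of Irx3, chr8:91948653-91948721, plus strand: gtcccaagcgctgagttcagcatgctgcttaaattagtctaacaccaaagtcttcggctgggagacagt

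A GLI match was present in 0 of the 5 called peaks on chromosome 13 (95% Wilson interval 0 to 43.4%) and in 1 of the 19 on chromosome 8 (5.26%, 0.935 to 24.6%). The share over all called peaks was 20.8%, and it was 22.7% of 22 called peaks within 500 kb of the HoxA genes and 26.5% of 34 around the HoxD genes. For both Iroquois clusters together it was 4.17% (0.739 to 20.2%), an interval that ends just below the share of all called peaks. Among members that were not called, a match was present in 0 of 14 on chromosome 13 (0 to 21.5%) and in 5 of 28 on chromosome 8 (17.9%, 7.88 to 35.6%), against 15.7% of all listed peaks that were not called. The exact consensus was found in 0 called members and in 2.84% of all called peaks. When 2 mismatches were allowed, 4 of 5 called peaks on chromosome 13 and 12 of 19 on chromosome 8 had a match, against 82.7% of all called peaks. These intervals cover counting error over peaks only, and neighbouring peaks share sequence composition. A 501 bp window without these letters does not say that GLI3 was not bound there.

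The 2 clusters differed in how many peaks they held. On chromosome 13, 5 of 19 listed peaks were called (26.3%, 11.8 to 48.8%), and on chromosome 8, 19 of 47 (40.4%, 27.6 to 54.7%), against 42.5% of all listed peaks. Both intervals include the share of the whole list. The 2 regions covered 2.30 Mb and 1.87 Mb, so the chromosome 13 cluster held 2.17 called peaks per Mb and the chromosome 8 cluster 10.1 per Mb. The genome as a whole held 2.75 called peaks per Mb. The region around the HoxA genes held 20.0 per Mb and that around the HoxD genes 31.1 per Mb. The density of called peaks was thus near that of the genome at cluster A, and at cluster B above the genome and below either Hox region, with no test of these differences.

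Enrichment overlapped between the clusters and lay in the range of the rest of the list. The 5 called peaks on chromosome 13 had a median log2 fold enrichment over input of 2.77 (lowest 2.36, highest 3.36). The 19 on chromosome 8 had a median of 2.58 (lowest 2.32, highest 4.50). All called peaks had a median of 2.69 with an interquartile range of 2.47 to 3.06. Among the 1000 highest-ranked of the 17149 listed peaks were 0 of the 19 members from chromosome 13. Of the 47 from chromosome 8 there were 2, ranks 85 and 477. At an FDR under 0.01, 3 of 5 and 14 of 19 called peaks remained, against 4957 of 7282 over the whole list. No difference from the whole list was tested in either count. Close to the threshold, the last called member had rank 7212 (FDR 0.0393, log2 2.32) and the first that was not called rank 7476 (FDR 0.0704, log2 2.30).

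**Figure D1:**
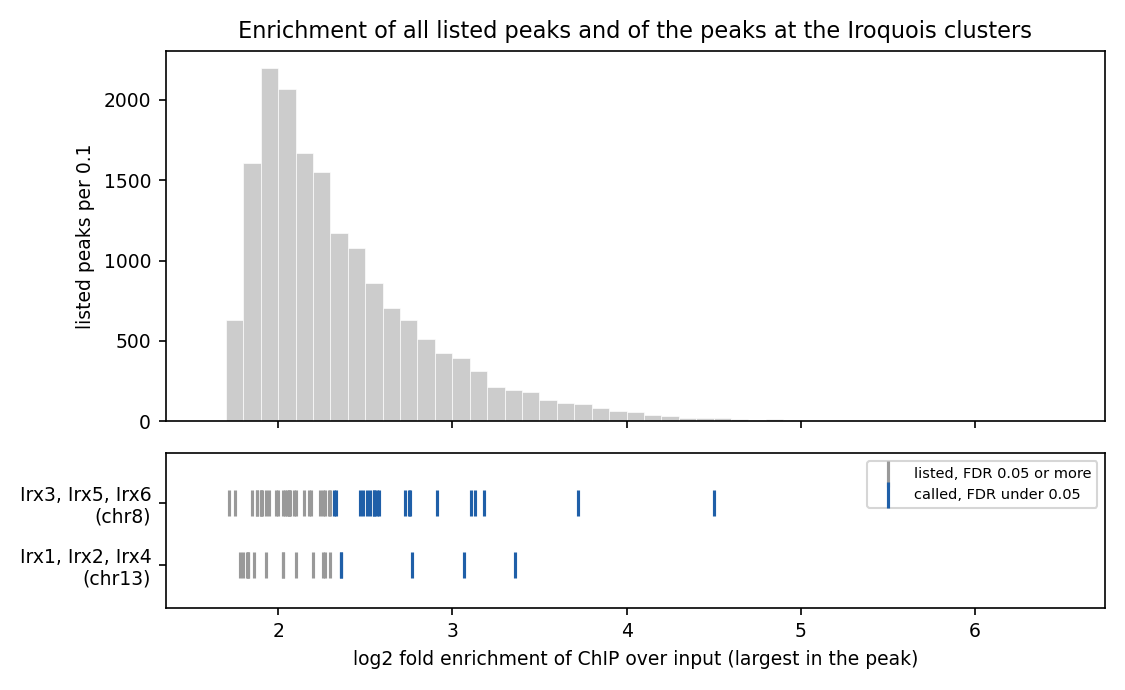
The upper panel counts all listed peaks by log2 fold enrichment of ChIP over input in steps of 0.1, and the lower panel marks each member of the 2 Iroquois clusters, in blue when called (FDR under 0.05) and in grey otherwise. Called members lie between 2.32 and 4.50, with rank 85 at 4.50 and rank 477 at 3.72 to the right of the others.

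Promoter peaks made up a smaller share of the called peaks at the clusters than in the list as a whole, a difference that was not tested. A promoter peak overlapped the window from 2 kb before to 1 kb after a TSS of a protein-coding gene, and 2 of 5 called peaks on chromosome 13 and 5 of 19 on chromosome 8 did so, against 52.6% of all called peaks. All 7 were at Irx1, Irx2, Irx3 or Irx5. The other 17 called peaks were distal. Promoter peaks were 63.6% of called peaks around the HoxA genes and 41.2% around the HoxD genes, the latter near the 40.0% of chromosome 13. The median GC content of the 501 bp windows was 53.3% on chromosome 13 and 49.5% on chromosome 8, against 58.7% over all called peaks. It was also below the whole list around the HoxA genes (54.5%) and the HoxD genes (52.2%). Within the chromosome 8 cluster the called promoter peaks ran from 59.3 to 73.7% GC, and the called distal peaks from 40.9 to 56.7%, so these ranges did not overlap.

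Around single genes, the counts were lowest at Irx6 in cluster B and at Irx4 in cluster A. Within 100 kb of its start sites, Irx5 had 7 called peaks of 14 listed and Irx3 had 5 of 9. Irx1 had 2 of 4 and Irx2 had 2 of 8, while Irx6 had 0 of 2 and Irx4 had none listed. Over all protein-coding genes the median was 1 called peak within 100 kb, with an upper quartile of 2, and 53.9% of genes had at least 1. As many called peaks as Irx5 or more were found at 1.97% of genes, as many as Irx3 at 5.69%, and as many as Irx1 and Irx2 at 31.2%. When called peaks less than 1 kb apart were merged, which left 6567 of the 7282, Irx5 and Irx3 had 4 each. This count was reached by 7.77% of genes. The lead of Irx5 was thus not kept when close peaks were counted as 1, and whether such peaks are separate sites was not tested. Irx4 and Irx6, which correspond to each other, were the members without a called peak in this window.

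Within 500 kb, Irx3 and Irx5 each had 13 called peaks, of 26 and 28 listed. These windows overlap, since the 5′ ends of the 2 genes are 556 kb apart, so peaks within 500 kb of both genes were counted for each. At 8.25% of protein-coding genes the count was as high or higher. Irx6 had 7 called peaks, all on the Irx5 side, and the nearest of them, rank 4754, was 237 kb away. Irx1 had 3, Irx2 had 2 and Irx4 had 0. After the same merging the counts were 12 at Irx3, 9 at Irx5 and 4 at Irx6, and unchanged at Irx1, Irx2 and Irx4. The median over protein-coding genes was 4, with an upper quartile of 8, and 83.5% of genes had at least 1. Within 10 kb, called peaks numbered 5 at Irx5, 2 at Irx3, 2 at Irx2, 1 at Irx1 and 0 at Irx4 and Irx6, and 22.8% of protein-coding genes had at least 1.

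**Figure D2:**
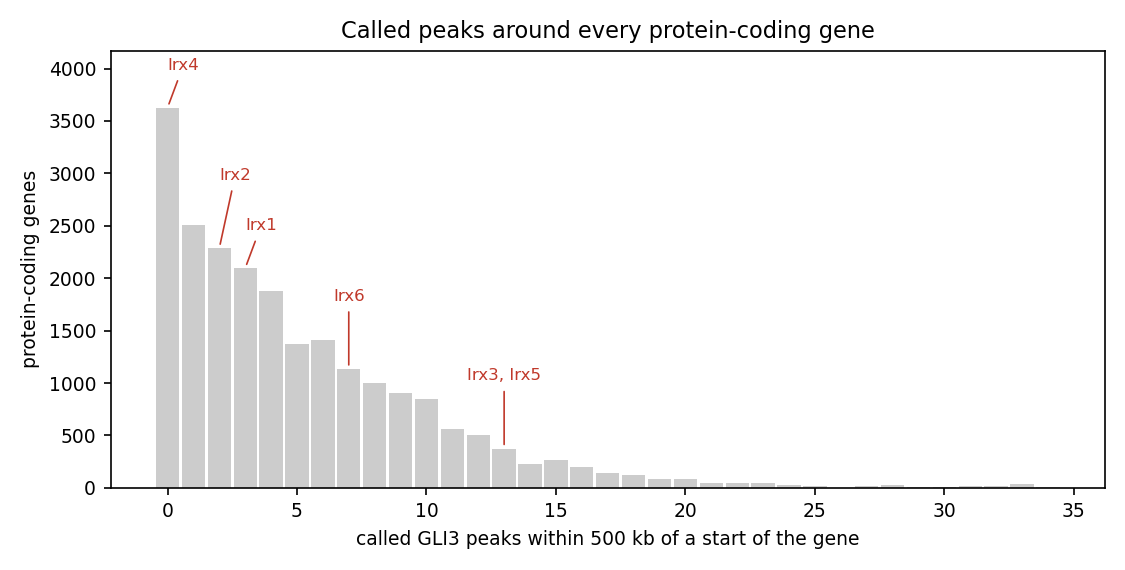
Bars count protein-coding genes by the number of called GLI3 peaks within 500 kb of their start sites, and the 6 Iroquois genes are marked at their own counts. Irx3 and Irx5 stand at 13, Irx6 at 7, Irx1 at 3, Irx2 at 2 and Irx4 at 0, around a median of 4.

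Irx3, which patterns the proximal and anterior limb together with Irx5, had the highest peaks of either cluster around it. Rank 85 (chr8:91612350-91612999) reached a log2 of 4.50, a 22.6-fold enrichment over input, with a −log10 Poisson p of 85.7. It lay in intron 8 of Fto, 189 kb from the nearest Irx3 start and 299 kb from the 5′ end of Fto. Rank 477 (chr8:91867000-91867399) reached a log2 of 3.72 with a −log10 Poisson p of 73.9. It lay 65.1 kb upstream of Irx3 in the lincRNA gene Gm28511, beside rank 3251 (chr8:91866250-91866549, log2 2.75) in the same gene. The Irx3 promoter itself was lower, with rank 1413 (chr8:91801250-91801949, log2 3.18) over the 5′ UTR. The summit base of rank 1413 was the only summit among called members that fell in sequence masked as a repeat, as did 8.95% of all called peaks.

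Called peaks lay on both sides of Irx3. Downstream, between Irx3 and the end of Fto, were rank 1558 (chr8:91713900-91714349, log2 3.13), 87.9 kb away in the lincRNA gene Gm36325, and rank 4471 (chr8:91679800-91680249, log2 2.58), 122 kb away. Upstream, towards Irx5, rank 1619 (chr8:91948050-91949149, log2 3.11) was 147 kb away and, at 1100 bp, the longest called member, with a −log10 Poisson p of 41.6. Of the other called peaks nearest to Irx3, rank 3401 is described with Fto, and the rest were rank 4558 (log2 2.57) at 124 kb, rank 6977 (log2 2.33) at 172 kb and rank 7212 (log2 2.32) at 3.60 kb, inside the antisense gene Irx3os. In all, 11 of the 19 called peaks of the cluster were nearest to Irx3 among the members, and 8 to Irx5.

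Fto held 7 of the 47 listed peaks on chromosome 8 within its 355 kb, and 5 of them were intronic. Of these 5, rank 85 and rank 3401 (chr8:91592650-91593449, log2 2.73) were called. Both lay in intron 8, the last intron of the longest transcript, which has 9 exons, and both were nearer to Irx3 (189 and 209 kb) than to the 5′ end of Fto (299 and 279 kb). The intronic peaks that were not called were rank 9244 in intron 4 and ranks 14791 and 11735 in intron 8, with log2 values of 2.18, 1.90 and 2.05. Ranks 7957 and 14674 (log2 2.27 and 1.91) fell in 3′ UTR exons and were not called either. A GLI match was present in 4 of the 5 intronic peaks, the exception being rank 3401, and in 17.9% of all listed peaks. As described beside their sequences, the matches of ranks 9244 and 14791 lay beyond the listed end of the peak. The only member in Rpgrip1l, rank 15106 (log2 1.88), was intronic, lay 497 kb from Irx3 and was not called. Aktip lay beyond the 500 kb limit.

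**Figure D3:**
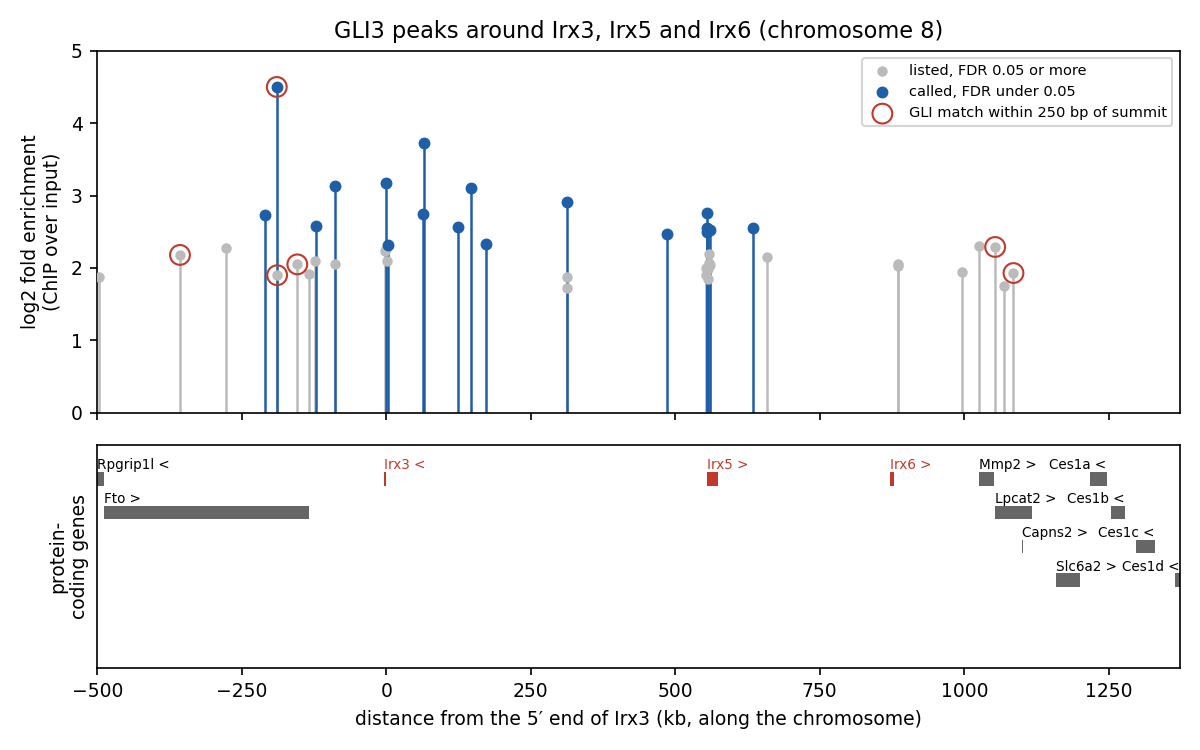
Each line is a listed peak of the chromosome 8 cluster, placed by distance of its summit from the 5′ end of Irx3 in kb and as tall as its log2 fold enrichment, with protein-coding genes drawn below (arrowheads give the strand). Red rings mark peaks with a GLI match. Called peaks (blue) spread over 844 kb from Fto to beyond Irx5, rank 85 in Fto reaches 4.50, and the peaks around and beyond Irx6 are all grey.

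At Irx5, several listed peaks lay side by side over the gene. Within 5 kb of its start sites lay 12 listed peaks, 5 of them called, over 7.10 kb. In the same window Irx3 had 5 listed and 2 called. The highest at Irx5 was rank 3182 over the 5′ UTR (chr8:92357550-92357849, log2 2.76, −log10 Poisson p 25.5). Ranks 4705 and 5248 (log2 2.55 and 2.49) lay 968 and 378 bp before the start, and ranks 5084 and 4939 (log2 2.51 and 2.53) in coding exons. When called peaks less than 1 kb apart were merged, 2 remained within 5 kb of Irx5 and 2 within 5 kb of Irx3, so the genes did not differ in this count. By the same merging the chromosome 8 cluster went from 19 to 15 called and, over all its listed peaks, from 47 to 28 listed.

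Away from the gene, Irx5 had 3 further called peaks. Rank 2436 (chr8:92114500-92115099, log2 2.91) lay 243 kb upstream, in the interval between Irx3 and Irx5, and was higher than any peak at Irx5 itself. Rank 5395 (log2 2.47) lay 70.7 kb upstream and rank 4754 (chr8:92436950-92437299, log2 2.55) lay 79.3 kb downstream. Irx6 had no listed peak within 10 kb. Its nearest, ranks 12122 and 11600 at 12.1 and 12.5 kb, had log2 values of 2.03 and 2.06 and were not called. The 7 listed peaks nearest to Irx6, which reached as far as Mmp2 and Lpcat2, included 0 called.

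Between neighbouring members on chromosome 8, the longest stretch without a listed peak was 226 kb, between rank 9793 and rank 12122, and it contains Irx6. Past the last member, rank 14140, the remaining 288 kb of the region also held none, and the next listed peak was 923 kb on. Counted in bins of 100 kb, 9 of 19 bins of the chromosome 8 region held a called peak, and 3 of 24 on chromosome 13, against 17.9% of such bins of the genome. Between neighbouring members on chromosome 13 there were stretches of 836 kb and 610 kb without a listed peak. The first contains Irx4, and the other most of the interval between Irx1 and Irx2. The genome as a whole held 6.48 listed peaks per Mb, and how often stretches of these lengths occur in it was not counted.

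At Irx2, the cluster A counterpart of Irx5, the highest peak of the chromosome 13 cluster was found. Rank 1009 (chr13:72638150-72638649, log2 3.36, −log10 Poisson p 27.5) lay in intergenic sequence 9627 bp downstream of the 5′ end of Irx2, past the end of the gene. Rank 3103 (chr13:72628500-72628749, log2 2.77, FDR 0.000315) lay 228 bp upstream of the start. Within 5 kb of the start sites there were 7 listed peaks, and rank 3103 was the 1 that was called. The other 6 ran from just before the start over the 5′ UTR, introns and coding exons with log2 values from 1.82 to 2.26. As at Irx5, listed peaks were close together over the gene body, here over 3.10 kb.

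At Irx1, the counterpart of Irx3, a peak upstream of the gene was higher than that at the promoter. Rank 1734 (chr13:72017750-72018199, log2 3.07, −log10 Poisson p 27.8) lay 54.2 kb upstream, and rank 6694 (chr13:71963600-71963949, log2 2.36, FDR 0.0374) lay over the start, 6 bp from it. Rank 6695 (chr13:71653900-71654149, log2 2.36), with the same FDR, lay 309706 bp downstream of the 5′ end in intergenic sequence. The promoter peak had a GC content of 76.0%, and the distal peaks 45.3% and 44.5%. Ranks 6694 and 6695 were not called at an FDR under 0.01, which leaves ranks 1009, 1734 and 3103 at this cluster.

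**Figure D4:**
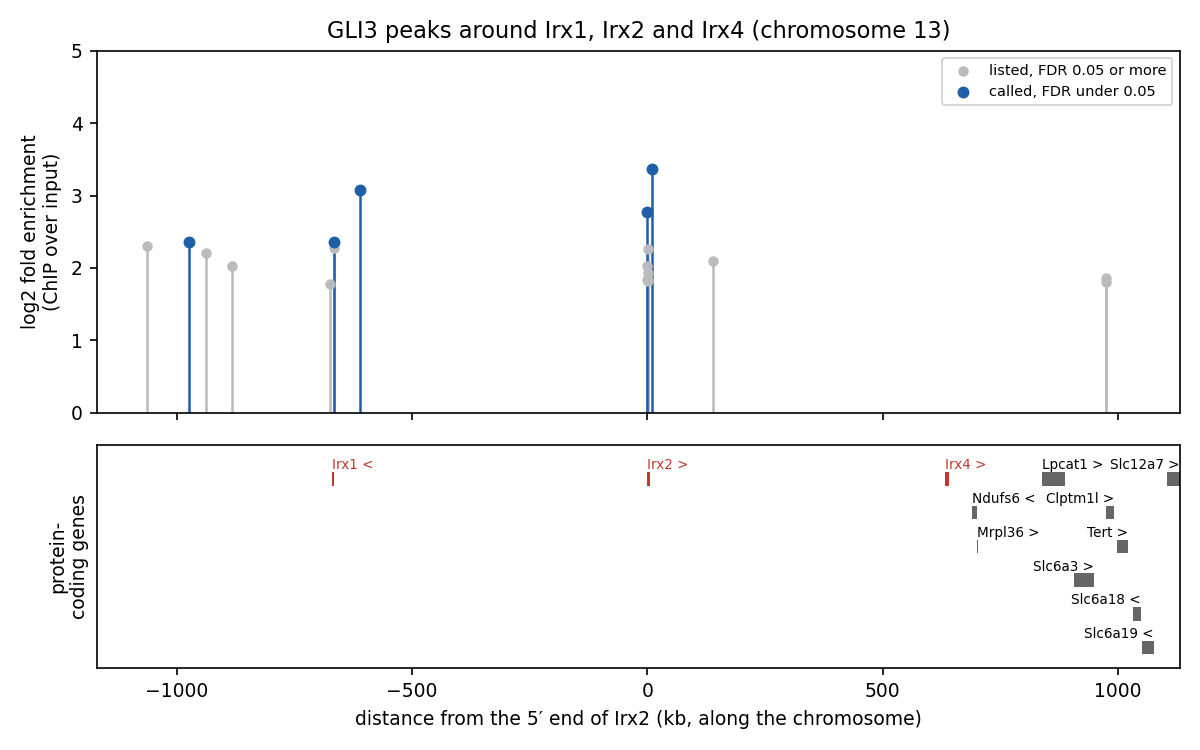
Each line is a listed peak of the chromosome 13 cluster, placed by distance of its summit from the 5′ end of Irx2 in kb and as tall as its log2 fold enrichment, on the same vertical scale as the map of chromosome 8. The 5 called peaks (blue), from 2.36 to 3.36, lie at and around Irx1 and Irx2, and the region of Irx4 is empty up to 2 grey peaks at Clptm1l.

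Irx4, which is best known from the ventricles of the heart, had the least signal of the 6 genes. No peak was listed within 100 kb of it. Its nearest listed peak, rank 15650 (log2 1.86, FDR 1), was 343 kb away at the promoter of Clptm1l. The nearest called peak was rank 549 (chr13:73833750-73834199, log2 3.66), 574 kb away and nearest to Nkd2, an inhibitor of WNT signalling, which places it outside the 500 kb limit. Of the other limits, the first peak beyond the chromosome 13 region on the Irx1 side was rank 126 (log2 4.29), 1321 kb from Irx1, and those beyond the chromosome 8 region were rank 4559 (log2 2.57) at 732 kb and rank 2785 (log2 2.83) at 1135 kb. The choice of 500 kb therefore left rank 549 just outside the members.

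Promoter sequence from RefSeq (GRCm38.p6), 250 bases before to 50 after the start, was matched for 3 of the 6 genes. The windows of Irx2, Irx3 and Irx4 held 0 GLI matches each, against 6.74% of 32851 promoters with at least 1. A called peak overlapped the window at Irx2 and at Irx3, and none did at Irx4. The windows of Irx2 and Irx4 were alike in GC content (69.0 and 70.7%) and unlike in GLI3 peaks.

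The Iroquois genes were set beside the other TALE homeobox genes, which include the Meis and Pbx cofactors of limb patterning. Of the 18 TALE genes, 14 had a called peak within 100 kb, against 53.9% of all protein-coding genes, and the 4 without were Irx4, Irx6, Meis1 and Pbx3. Among the 12 that are not Iroquois genes, 10 had at least 1 within 100 kb, and the median count was 2 within 100 kb and 4 within 500 kb, where the medians over all protein-coding genes were 1 and 4. Irx3 and Irx5 had the highest count of the list within 500 kb, followed by Pbx2 with 12. Within 100 kb, Irx5 had 7 and Irx3 had 5, followed by Pknox2 and Tgif2 with 4 each. With called peaks merged as above, Irx3 and Irx5 had 4 each and Pknox2 had 3 within 100 kb, and Irx3 had 12, Irx5 had 9 and Pbx2 and Meis3 had 8 each within 500 kb. The best peaks near Pknox2 (rank 110, log2 4.36), Tgif2 (rank 193, log2 4.10), Pbx4 (rank 372, log2 3.83) and Tgif1 (rank 426, log2 3.78) were higher than any within 100 kb of an Iroquois gene, where rank 477 near Irx3 was the best. Of 25 genes of the HH pathway and limb patterning, 25 had a called peak within 100 kb, with a median of 4, beside the 53.9% and the median of 1 over all protein-coding genes.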

How the data were processed

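GLI3-FLAG ChIP-seq was done on forelimb buds in 2 ChIP replicates with 1 input. Libraries had 15 PCR cycles. The submitters' processing notes name Bowtie2 2.2.5 and mm10, and the study's methods name CisGenome and 2 replicates, so the list was taken as a joint call. It does not state this itself, and only the record of ChIP replicate 1 carries it. Its 7282 called peaks equal in number the GLI3 binding regions that the study reports from 2 replicates. The exact depth is unknown here, since the study gives a lower bound only.

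The deposited list gives an FDR (a q-value), the largest log2 fold enrichment, a T score that sets the rank and the lowest Poisson p-value as −log10, capped at 100, all computed by the authors. Peaks with an FDR under 0.05 were called. Coordinates are printed as listed, and whether they count from 0 or 1 is not given in the sources used here. Distances ran from each summit to GENCODE M21 start sites, and densities used the genome without gaps (2648 Mb). Shares by sequence or position omit the 5 listed peaks that lie on unplaced contigs.

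Shares carry 95% Wilson intervals, which cover counting error only. No test of a difference was run, because the list gives 1 value per peak and none per replicate. Named genes were the 6 members, Fto, Rpgrip1l and Aktip, genes at or nearest to called members, 3 HH targets, the Hox clusters and 2 lists (25 HH and limb genes, 18 TALE genes). Described peaks were up to 10 called per cluster in rank order, and the best and nearest of each gene. The other called peaks and the peaks with a GLI match were named after their values were seen, as were Nkd2, Mmp2, Lpcat2 and Clptm1l. The members and lists were chosen with earlier results of these data known. The code for member selection was run on simulated data, with members planted within 500 kb of a start and all other peaks far away. It recovered 10 of 10 sets, which checks the code only and not the annotation or peaks just beyond the limit. Python 3.11.15, numpy 2.4.6, pandas 2.3.3, scipy 1.17.1 and matplotlib 3.10.9 were used.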

Additional observations from a re-analysis of the deposited data

How the results depend on the processing

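Of 64 alternatives over 9 results, 53 stayed within the limits set (counts within 1.5 times, shares and medians within their interval or spread) and 11 did not. At an FDR under 0.01 the chromosome 13 cluster had 3 called peaks. With every listed peak counted, the called peaks became 19 on chromosome 13, 47 on chromosome 8 and 5 in Fto introns, and the median log2 fold enrichment 2.10 and 2.24. Merging peaks less than 1 kb apart left 11 listed peaks on chromosome 13 and 28 on chromosome 8. The share of called peaks with a GLI match became 80.0% on chromosome 13 and 63.2% on chromosome 8 at up to 2 mismatches, and 0% on chromosome 8 for the exact consensus. These changes follow from how many peaks or sequences each setting admits. Merging called peaks for each gene, an alternative chosen after seeing the data, took Irx5 from 7 to 4 within 100 kb and from 5 to 2 within 5 kb, and Irx3 from 5 to 4 within 100 kb.

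No paired analysis was possible because there is 1 value per peak, which does not give the ChIP replicates apart. Leave-one-out settings could not be run for the same reason. Without the read depth, peaks that were not called cannot be read as unbound.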
